A study of Homo sapiens with 6 samples.

Results

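The genes described here encode SR proteins, hnRNPs, and the factors that recognize the branch point and the 3′ splice site. They were taken from the deposited gene table as the protein-coding entries whose symbol was SRSF or HNRNP followed by a number or letters, together with FUBP1, FUBP3, KHSRP, PUF60, U2AF1, U2AF2, SF1, SF3B1, TRA2A, TRA2B, PTBP1 and PTBP2. This gave 50 of the 58735 genes in the table, and 45 of the 50 passed the filter on low counts. RNA-seq was performed on cells labelled MG63, an established human osteosarcoma line. FUBP1 was knocked down by siRNA in 3 samples (siFUBP1), the other 3 samples received a negative control (siMock), and RNA was extracted 48 h later. No drug treatment is named in the labels of these samples. Poly(A) RNA was sequenced, and total counts ranged from 16309900 to 17484313 per sample. Levels are given as CPM, counts scaled to a common library size with TMM factors, and means are given with the SD of 3 samples. Fold changes are siFUBP1 over siMock, and genes with an adjusted p below 0.05 in edgeR's quasi-likelihood test, run over 16116 genes, are called higher or lower.

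Introns are removed by the spliceosome, which first has to find the ends of each intron. SF1 binds the branch point, the U2AF1 and U2AF2 proteins bind the 3′ splice site and the pyrimidine tract before it, and SF3B1 then holds the U2 snRNP at the branch point. SR proteins mostly bind exons and promote the use of nearby splice sites, whereas hnRNPs bind nascent transcripts and often repress splice sites. FUBP1, FUBP3 and KHSRP form a family of single-strand nucleic acid binding proteins with KH domains, and FUBP1 is known both as a regulator of MYC transcription and as a splicing factor.

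The labelled cell type was checked against markers of osteoblast-lineage and mesenchymal cells. COL1A1 had 769 to 2000 counts per sample and VIM 2312 to 3731, whereas COL1A2 had 0 counts in all 6 samples. In the library with the highest limit, siMock replicate 3, a count of 0 allows up to 0.192 CPM. SPARC had 0 to 5 counts, ALPL 0 to 1, SP7 0 to 2, and BGLAP 2 to 13, so these markers of bone-forming cells were absent or nearly so. The other markers of this list moved with the knockdown. COL1A1 had a log2 fold change of −1.31 (adjusted p = 1.83e-13), and VIM one of 0.38 (adjusted p = 0.00021). RUNX2 had 6 to 97 counts per sample and was nearly absent in siMock, at 0.384 to 0.490 CPM. In siFUBP1 it was at 2.23 to 5.59 CPM (log2 fold change 3.15, adjusted p = 4.53e-08). Of the epithelial markers, EPCAM had 59 to 83 counts, CDH1 8 to 22 and KRT19 0 to 3. Of the leukocyte markers, CD3E had 0 in all samples, PTPRC 0 to 2 and CD14 2 to 16, and of the endothelial markers, CDH5 had 29 to 64, PECAM1 0 to 11 and VWF 1 to 14. The cells are therefore called here only by their label. Mitochondrial genes took 5.60% to 6.59% of the counts in siMock and 3.98% to 4.88% in siFUBP1, and the part of this difference, or of the marker changes, in the results described here was not tested. In such bulk samples, fewer cells of a type and less RNA per cell cannot be told apart.

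FUBP1, the targeted gene (chromosome 1, 77944055 to 77979110, minus strand, GRCh38), stood at 237, 255 and 274 CPM in the siMock samples and at 44.3, 43.4 and 53.0 CPM in the siFUBP1 samples. Every siFUBP1 sample was below every siMock sample. FUBP1 fell to 18.4% of its siMock level (log2 fold change −2.44, SE 0.0895, adjusted p = 1.9e-17). The sources do not say which of 3 designed FUBP1 siRNAs was sequenced. Their sense strands are shown because they define the intended cut sites, and the capitals mark the bases that face the guide strand's seed (guide positions 2 to 8):
RNAi#1: gguguucgcauUCAGUUUa
RNAi#2: ggugcugacaaACCUCUUa
RNAi#3: cggcaacucauAGAAGAAa
The sites lie in FUBP1 coding sequence on the minus strand, at chr1:77964260-77964278 (exon 11), chr1:77964899-77964917 (exon 9) and chr1:77962778-77962796 (exon 14), and each site is present in 3 of the 13 annotated FUBP1 transcripts.

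The relatives FUBP3 and KHSRP did not pass the test. FUBP3 was at 113, 119 and 107 CPM in siMock and at 104, 107 and 116 CPM in siFUBP1, and the groups overlapped (log2 fold change −0.05, SE 0.0779, adjusted p = 0.614). KHSRP, which binds AU-rich elements and takes part in mRNA decay and microRNA processing, was at 213, 209 and 193 CPM in siMock and at 215, 202 and 197 CPM in siFUBP1 (log2 fold change −0.0009, SE 0.0762, adjusted p = 0.994). After offsets for GC content and length were added to the fit (the GC and length correction), FUBP3 had a log2 fold change of −0.17 (adjusted p = 0.0264) and KHSRP one of 0.16 (adjusted p = 0.0224), so both calls depended on that correction. The windows of each transcript with the fewest mismatches to the siRNA sense strands are shown because these genes are the closest relatives of the target, and here the capitals mark the mismatched bases:
FUBP3, RNAi#1: gguguGAgGauucaguuua
FUBP3, RNAi#2: ggAgcAgacaaGccucuuC
FUBP3, RNAi#3: AggcaGcucauagaUgaGa
KHSRP, RNAi#1: ggCguGcgGauAcaguuCa
KHSRP, RNAi#2: AAugUGgacaaaccucuCC
KHSRP, RNAi#3: AAgcaGcuUauCgaGgaaa
FUBP3 differed from the siRNAs at 3, 4 and 4 of 19 positions, and KHSRP at 5, 6 and 6. Over the members other than FUBP1, the best window of any transcript examined had 3 to 8 mismatches with RNAi#1 and 4 to 8 with RNAi#2 or RNAi#3.

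Of the 44 tested members other than FUBP1, 7 were called higher (15.9%), 19 were called lower (43.2%), and 18 did not pass the test. Among all 16116 genes tested, 60.2% were called, 30.1% higher and 30.1% lower. Among the 4134 genes that averaged 1000 counts or more, 32.2% were called higher and 38.3% lower. With the GC and length correction, the calls over all members including FUBP1 moved from 7 higher and 20 lower to 4 higher and 24 lower, so the share of higher calls went from 25.9% to 14.3%. Over all genes, 30.9% were called higher and 30.9% lower with that correction. All 20 lower calls stood under that correction, while 5 of the 7 higher calls were lost, those of HNRNPA1, HNRNPDL, HNRNPH3, HNRNPLL and SRSF3. The groups did not overlap in 9 members that were higher and 20 that were lower in siFUBP1, against 32.2% and 31.7% of all genes. SRSF12, a member of the SR family, had 0 to 4 counts per sample and was not tested. HNRNPCL1, HNRNPCL2, HNRNPCL3 and HNRNPCL4, which are HNRNPC-like genes, had 0 counts in all 6 samples, which allows up to 0.192 CPM in the library with the highest limit.

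**Figure D1:**
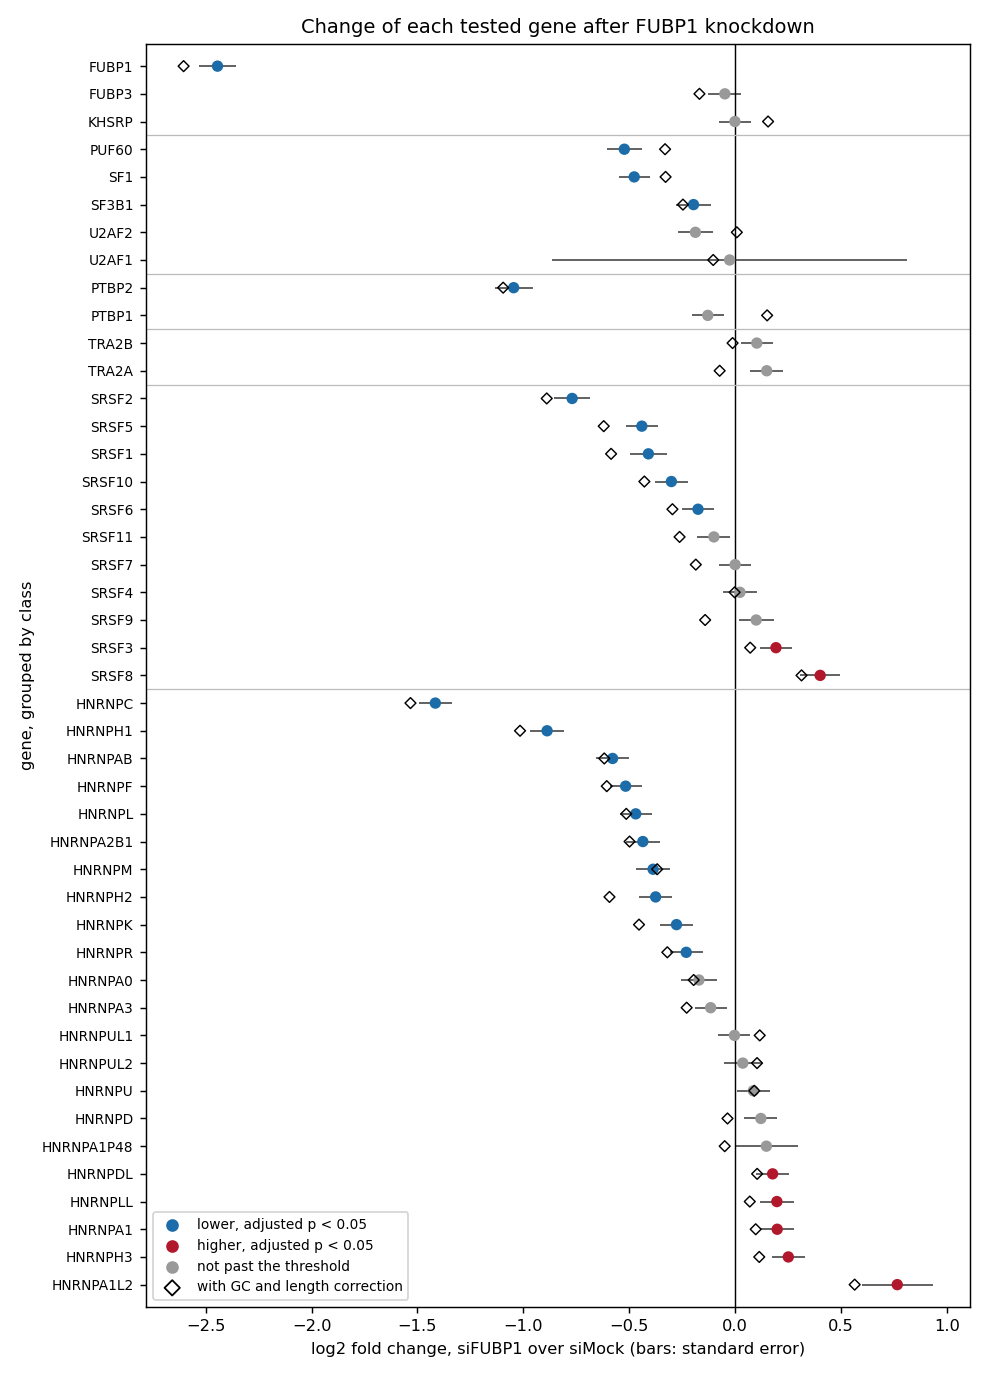
Log2 fold change of the 45 tested members (x axis, siFUBP1 over siMock) by gene (y axis, grouped from the top as FUBP family, branch point and 3′ splice site, PTB, TRA2, SR proteins and hnRNPs). Circles are the fitted values with bars of 1 SE, colored by the call, and open diamonds are the values with the GC and length correction. FUBP1, HNRNPC and PTBP2 are the members below −1, and no member is above 1.

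Most members changed little. The absolute log2 fold change was at most 0.25 in 25 of the 44 members other than FUBP1, between 0.25 and 0.5 in 11, between 0.5 and 1 in 6, and over 1 in 2. The median absolute log2 fold change was 0.197 over these members and 0.442 over all genes tested. All genes tested include weakly counted ones, and the sizes were not compared with those of genes counted as well as the members. The signed median was −0.12, against 0.002 over all genes. A call that also required an absolute log2 fold change above 1 left 0 members higher and 3 lower (FUBP1, HNRNPC and PTBP2), where it left 17.3% of all genes, 8.16% higher and 9.13% lower.

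**Figure D2:**
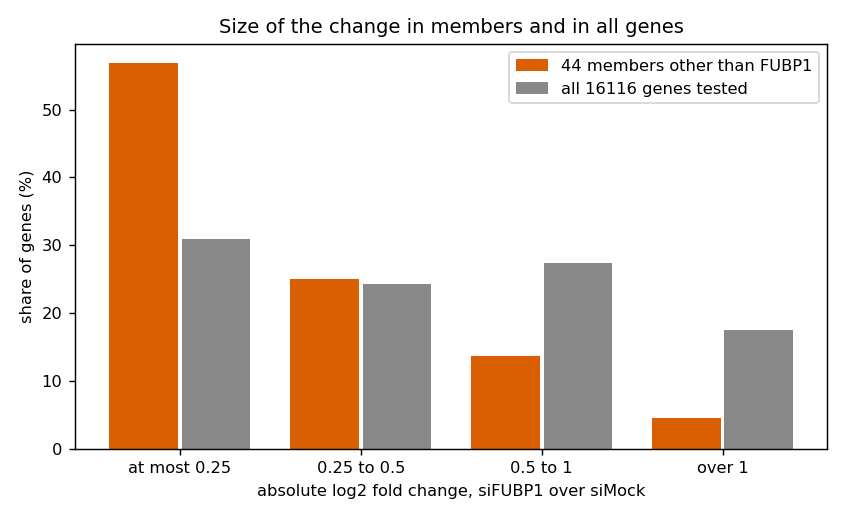
Share of genes (y axis, %) in each class of absolute log2 fold change (x axis) for the 44 tested members other than FUBP1 and for all 16116 genes tested. The class of at most 0.25 holds 56.8% of the members and 30.9% of all genes, and the class over 1 holds 4.55% and 17.6%.

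Among the branch point and 3′ splice site factors, 3 of 5 were called lower, 0 were called higher, and 2 did not pass the test. Over all genes tested, 30.1% were called in each direction. SF1, the branch point binding protein, was at 231, 227 and 222 CPM in siMock and at 165, 164 and 159 CPM in siFUBP1, with no overlap between the groups. It fell to 71.9% of its siMock level (log2 fold change −0.48, SE 0.0733, adjusted p = 3.51e-06). PUF60, a U2AF2-related protein that binds pyrimidine tracts and also represses the MYC transcription that FUBP1 activates, was at 146, 143 and 121 CPM in siMock and at 93.7, 91.7 and 101 CPM in siFUBP1. It fell to 69.6% (log2 fold change −0.52, SE 0.0824, adjusted p = 4.99e-06). The fall of both genes was smaller with the GC and length correction, at a log2 fold change of −0.33 for each, and both remained called. SF3B1, the largest subunit of the U2 snRNP's SF3b complex, had overlapping groups at 337, 359 and 403 CPM against 311, 301 and 347 CPM. Its call (log2 fold change −0.20, adjusted p = 0.0443) was lost in DESeq2 (adjusted p = 0.054), without a filter (0.0704), and on leaving out siMock replicate 2 (0.0775) or 3 (0.218), or siFUBP1 replicate 1 (0.153) or 2 (0.17).

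U2AF2, the large subunit of U2AF that contacts the pyrimidine tract, was at 219, 219 and 184 CPM in siMock and at 184, 191 and 172 CPM in siFUBP1. The groups overlapped, and the adjusted p of 0.05004 was just above the threshold (log2 fold change −0.19, SE 0.0817). It was called with RLE size factors (adjusted p = 0.0497), with the replicate number as a block (0.0135), without siMock replicate 3 (0.00561) and without siFUBP1 replicate 2 (0.0446). With the GC and length correction its log2 fold change was 0.01.

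U2AF1, the small subunit that reads the AG at the 3′ end of the intron, could not be measured as a single gene. The annotation holds a second locus, U2AF1L5 (chromosome 21, 6484623 to 6499261, minus strand), whose transcript was identical to that of U2AF1 (chromosome 21, 43092956 to 43107587, minus strand) over the 897 bases aligned, with 0 differences. U2AF1 had 169, 83 and 163 counts in siMock and 68, 310 and 56 in siFUBP1. U2AF1L5 had 138, 372 and 130 counts in siMock and 109, 122 and 109 in siFUBP1. The share of U2AF1 in the reads of the 2 loci was 18.2% in siMock replicate 2 and 71.8% in siFUBP1 replicate 2, and 33.9% to 55.6% in the other 4 samples. U2AF1 has 96.64% of its 100-base windows in common with U2AF1L5. Whether reads that match both loci were counted was not tested, so a sum of the 2 loci may miss reads. Summed, the 2 loci had 21.5 ± 4.61 CPM in siMock and 14.9 ± 8.64 CPM in siFUBP1, a log2 ratio of −0.52 (two-sided exact permutation test, p = 0.3, n = 3 per group, where the smallest p possible is 0.1). Without siFUBP1 replicate 2 the siFUBP1 mean was 9.97 CPM and the log2 ratio −1.11, and without siFUBP1 replicate 1, siFUBP1 replicate 3 or siMock replicate 2 the log2 ratio was −0.32, −0.28 or −0.33. For U2AF1 alone, the log2 fold change was −0.03 (SE 0.838, adjusted p = 0.982), and it became −1.23 without siFUBP1 replicate 2 (adjusted p = 0.00195).

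**Figure D3:**
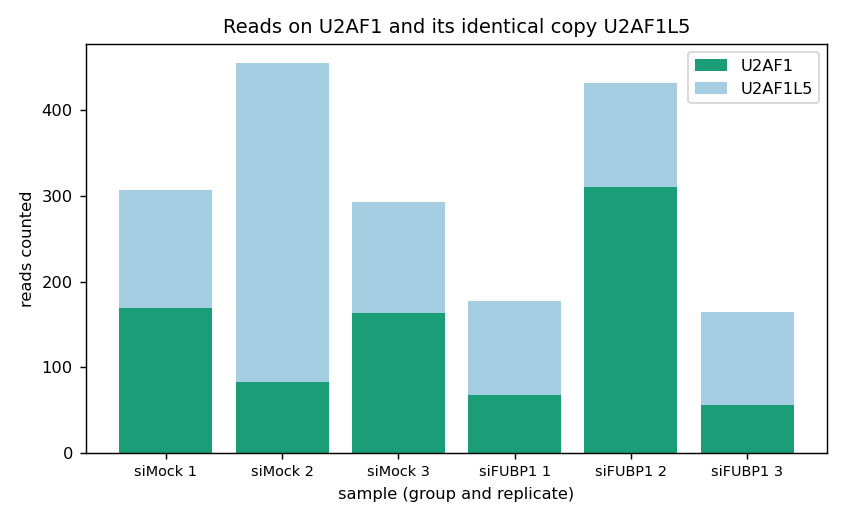
Reads counted (y axis) on U2AF1 and on its identical copy U2AF1L5, stacked, in each of the 6 samples (x axis, group and replicate). U2AF1L5 holds 372 of the 455 reads in siMock replicate 2, and U2AF1 holds 310 of the 432 reads in siFUBP1 replicate 2.

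The polypyrimidine tract binding proteins, which repress exons flanked by pyrimidine tracts, had 1 member called lower and 1 that did not pass the test. PTBP2, the paralog known for its role in neurons, was at 58.6, 62.0 and 63.2 CPM in siMock and at 29.6, 27.2 and 32.2 CPM in siFUBP1. It fell to 48.4% of its siMock level (log2 fold change −1.05, SE 0.0903, adjusted p = 2.03e-10). PTBP1, the widely expressed paralog, was at 374, 360 and 339 CPM in siMock and at 331, 317 and 333 CPM in siFUBP1. The groups did not overlap, but PTBP1 did not pass the test (log2 fold change −0.13, SE 0.0759, adjusted p = 0.147), and its direction turned with the GC and length correction (log2 fold change 0.15, adjusted p = 0.0339). The ratio of PTBP2 to PTBP1 was 0.528 times as high in siFUBP1 as in siMock. The TRA2 proteins, SR-like activators of exon inclusion, did not pass the test. TRA2A was at 84.1 to 93.4 CPM in siMock and 97.5 to 104 CPM in siFUBP1 (adjusted p = 0.101), and TRA2B at 179 to 193 CPM and 196 to 209 CPM (adjusted p = 0.244). In both, every siFUBP1 sample was above every siMock sample, and in both the log2 fold change turned from 0.15 and 0.10 to −0.07 and −0.01 with the GC and length correction.

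**Figure D4:**
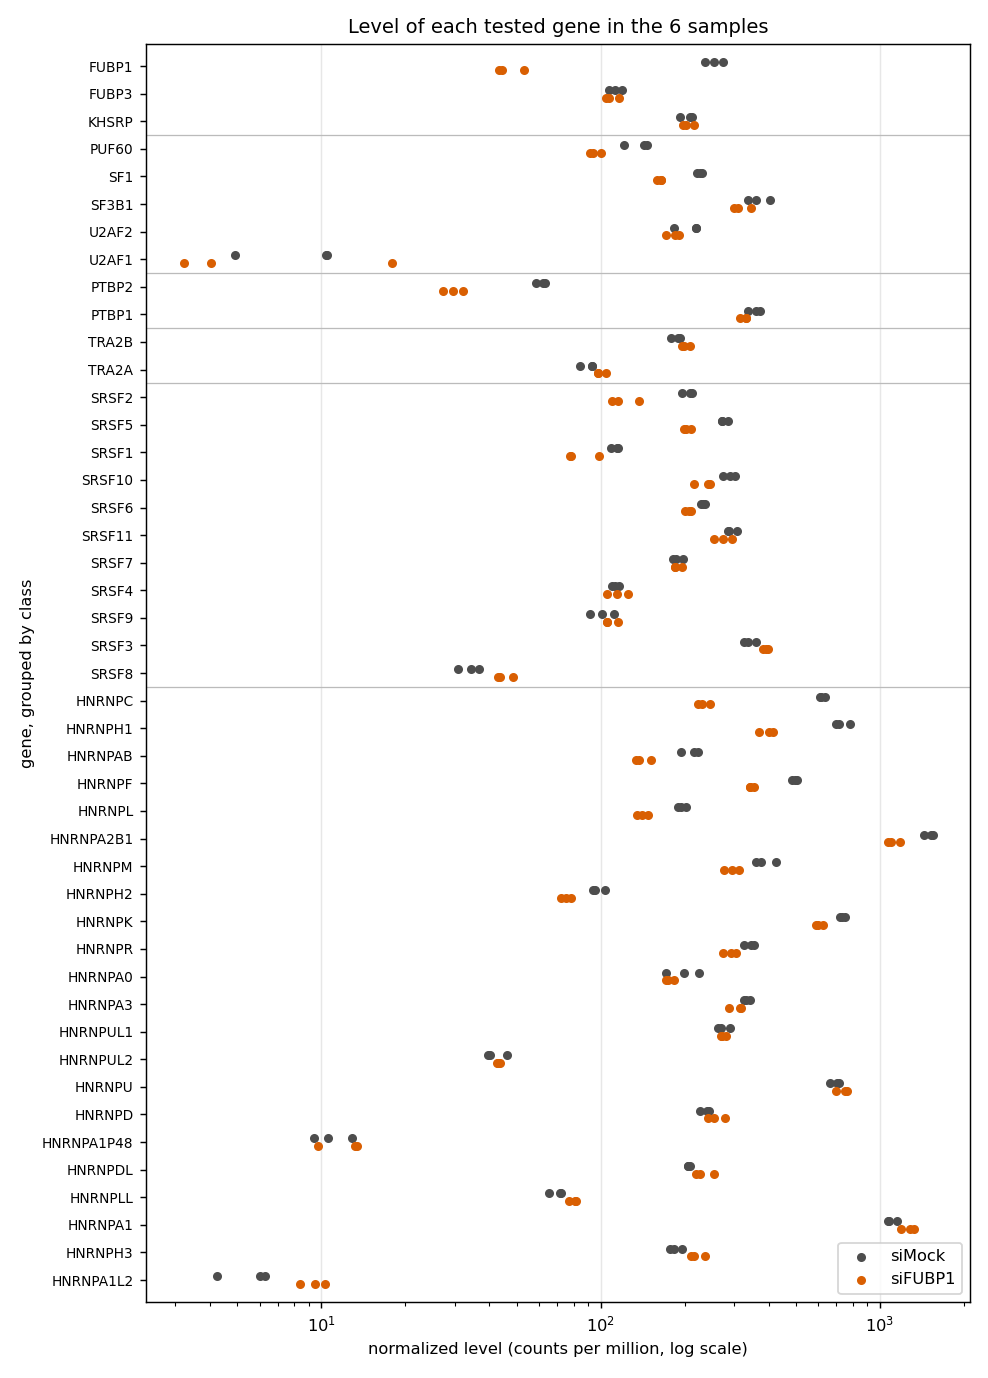
Level of each of the 45 tested members (y axis, grouped by class) in the 3 siMock and 3 siFUBP1 samples (x axis, CPM, log scale). Each point is 1 sample. HNRNPC, HNRNPH1, PTBP2 and SRSF2 have well separated groups with siFUBP1 lower, and U2AF1 has siFUBP1 samples from 3.21 to 17.9 CPM around siMock samples from 4.88 to 10.4 CPM.

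Of the 11 tested SR proteins, 2 were called higher (18.2%), 5 were called lower (45.5%), and 4 did not pass the test. Over all genes tested, 30.1% were called in each direction. Of genes averaging 1000 counts or more, 32.2% were called higher and 38.3% lower. SRSF2 (SC35), an SR protein of nuclear speckles, was at 210, 196 and 212 CPM in siMock and at 110, 116 and 137 CPM in siFUBP1, with no overlap. It fell to 58.7% of its siMock level (log2 fold change −0.77, SE 0.0836, adjusted p = 1.3e-08). SRSF5 was at 272, 272 and 287 CPM against 200, 202 and 211 CPM, and fell to 73.7% (log2 fold change −0.44, SE 0.0744, adjusted p = 1.31e-05). SRSF1 (ASF/SF2), a long-studied SR protein and oncogenic splicing factor, was at 114, 109 and 115 CPM against 78.0, 77.6 and 98.8 CPM. It fell to 75.3% (log2 fold change −0.41, SE 0.0878, adjusted p = 0.000251). SRSF10, a splicing repressor when dephosphorylated, was at 290, 275 and 304 CPM against 216, 242 and 247 CPM (log2 fold change −0.30, adjusted p = 0.00175). SRSF6 was at 230 to 236 CPM against 201 to 212 CPM (log2 fold change −0.18, adjusted p = 0.0416), and its call was lost without a filter (adjusted p = 0.127) and without siMock replicate 1 (0.0712), 2 (0.0847) or 3 (0.0589) or siFUBP1 replicate 1 (0.153) or 2 (0.089).

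The SR proteins called higher were SRSF8 and SRSF3. SRSF8, a close relative of SRSF2, was at 36.8, 31.0 and 34.3 CPM in siMock and at 42.8, 48.4 and 43.6 CPM in siFUBP1. It was 1.32-fold higher (log2 fold change 0.40, SE 0.0932, adjusted p = 0.000578), and its call stood with the GC and length correction (adjusted p = 0.00226). SRSF3, a small SR protein that also takes part in mRNA export, was at 339, 326 and 360 CPM against 392, 380 and 398 CPM (log2 fold change 0.19, adjusted p = 0.0308). Its call was lost with the GC and length correction (log2 fold change 0.07, adjusted p = 0.306) and on leaving out siMock replicate 1 (0.0696) or 2 (0.139), or siFUBP1 replicate 1 (0.0545) or 3 (0.0753). SRSF4, SRSF7, SRSF9 and SRSF11 had overlapping groups, with log2 fold changes of 0.02, 0.00, 0.10 and −0.10. SRSF7 (log2 fold change −0.19, adjusted p = 0.00869) and SRSF11 (−0.26, adjusted p = 0.000388) were called lower with the GC and length correction. Some of these genes share sequence with others. SRSF1 has 81.05% of its 100-base windows in common with AC015813.2, a coding locus on the same strand. Exons of MFSD11 lie opposite 1106 bases of SRSF2 and exons of GATC opposite 1729 bases of SRSF9, and the strand setting of the counting is not given in the sources used here.

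Of the 22 tested hnRNPs, 5 were called higher (22.7%), 10 were called lower (45.5%), and 7 did not pass the test. Over all genes tested, 30.1% were called in each direction. Of genes averaging 1000 counts or more, 32.2% were called higher and 38.3% lower. HNRNPC, which binds uridine tracts and keeps U2AF2 from cryptic exons, had the largest fall of any member other than FUBP1. It was at 612, 618 and 639 CPM in siMock and at 231, 223 and 246 CPM in siFUBP1, a 2.67-fold lower level (log2 fold change −1.42, SE 0.078, adjusted p = 3.24e-14). In the order of all 16116 log2 fold changes from the lowest, HNRNPC stood at place 735. HNRNPH1, which binds G-rich elements, was at 697, 714 and 785 CPM in siMock and at 370, 401 and 415 CPM in siFUBP1. It was 1.85-fold lower (log2 fold change −0.89, SE 0.081, adjusted p = 5.55e-10). In both genes the lowest siMock sample was above the highest siFUBP1 sample, and both passed the adjusted p in each of the 13 alternative fits.

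The relatives HNRNPF and HNRNPH2, which bind similar G-rich elements, were also called lower. HNRNPF was at 485, 507 and 498 CPM in siMock and at 343, 342 and 356 CPM in siFUBP1 (log2 fold change −0.52, SE 0.0751, adjusted p = 1.5e-06). HNRNPH2 was at 93.7, 95.3 and 104 CPM against 75.4, 72.1 and 78.1 CPM (log2 fold change −0.38, SE 0.0784, adjusted p = 0.000187). It has 12.48% of its 100-base windows in common with RPL36A-HNRNPH2, a coding locus on the same strand. HNRNPH3, a shorter relative of this subfamily, was called higher, at 177, 183 and 196 CPM against 211, 216 and 236 CPM (log2 fold change 0.25, SE 0.0772, adjusted p = 0.00667). With the GC and length correction HNRNPH3 had a log2 fold change of 0.11 (adjusted p = 0.0968) and was not called.

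The core hnRNPs HNRNPA1 and HNRNPA2B1, paralogs that package nascent RNA, were called in opposite directions. HNRNPA2B1 was at 1445, 1526 and 1552 CPM in siMock and at 1067, 1098 and 1178 CPM in siFUBP1, with no overlap (log2 fold change −0.44, SE 0.0817, adjusted p = 5.15e-05). HNRNPA1 was at 1073, 1080 and 1150 CPM in siMock and at 1323, 1189 and 1280 CPM in siFUBP1, also with no overlap (log2 fold change 0.20, SE 0.0815, adjusted p = 0.0377). HNRNPA1 was not called with the GC and length correction (log2 fold change 0.10, adjusted p = 0.199), nor on leaving out siMock replicate 1 (0.107) or 2 (0.115), or siFUBP1 replicate 1 (0.0997) or 3 (0.0861). HNRNPA1 has 25.29% of its 100-base windows in common with other annotated loci, and HNRNPA2B1 has 0%. HNRNPA1L2, an intronless copy of HNRNPA1 that is 97.3% identical to it over 1372 bases, was at 4.23, 6.30 and 6.02 CPM against 9.47, 10.3 and 8.36 CPM. It was called higher (log2 fold change 0.77, SE 0.169, adjusted p = 0.000338), and its reads may be split with those of HNRNPA1. HNRNPA1P48, another copy annotated as coding, had overlapping groups (10.9 ± 1.75 against 12.1 ± 2.06 CPM, adjusted p = 0.407).

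Among the remaining hnRNPs called lower were HNRNPAB, HNRNPL, HNRNPM, HNRNPK and HNRNPR, and none of them had overlapping groups. HNRNPAB, an A/B-type RNA-binding protein, was at 223, 216 and 194 CPM in siMock and at 138, 134 and 152 CPM in siFUBP1 (log2 fold change −0.58, SE 0.0794, adjusted p = 6.24e-07). HNRNPL, which binds CA repeats, was at 194, 202 and 189 CPM against 135, 140 and 148 CPM (log2 fold change −0.47, SE 0.075, adjusted p = 6.09e-06). HNRNPM, a regulator of alternative splicing in epithelial-mesenchymal transition, was at 426, 375 and 360 CPM against 278, 297 and 313 CPM (log2 fold change −0.39, SE 0.0815, adjusted p = 0.000204). HNRNPK, a KH-domain protein that binds C-rich stretches, was at 722, 731 and 752 CPM against 602, 592 and 625 CPM (log2 fold change −0.28, adjusted p = 0.00301). HNRNPR was at 325 to 356 CPM against 275 to 307 CPM (log2 fold change −0.23, adjusted p = 0.0118), and its call was lost without siFUBP1 replicate 1 (adjusted p = 0.0859).

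HNRNPLL and HNRNPDL were the last of the hnRNPs called higher. HNRNPLL, a paralog of HNRNPL, was at 71.9, 65.4 and 71.4 CPM in siMock and at 76.9, 81.4 and 81.0 CPM in siFUBP1 (log2 fold change 0.20, adjusted p = 0.0345). Its call was lost with the GC and length correction (log2 fold change 0.07, adjusted p = 0.381) and on leaving out siMock replicate 2 (0.175), or siFUBP1 replicate 2 (0.0792) or 3 (0.0769). HNRNPDL, a paralog of HNRNPD, was at 209, 206 and 205 CPM against 227, 220 and 254 CPM (log2 fold change 0.18, adjusted p = 0.0498). Its call was lost with the GC and length correction (log2 fold change 0.10, adjusted p = 0.146), without a filter (0.0527), and without siMock replicate 1 (0.0783), 2 (0.114) or 3 (0.1) or siFUBP1 replicate 1 (0.0525) or 3 (0.247). HNRNPA0, HNRNPA3, HNRNPD, HNRNPU, HNRNPUL1 and HNRNPUL2 did not pass the test, with log2 fold changes from −0.17 (HNRNPA0) to 0.12 (HNRNPD). Of these 6, the groups overlapped in all but HNRNPA3, which was at 325 to 342 CPM in siMock and at 289 to 317 CPM in siFUBP1 (adjusted p = 0.195) and was called lower with the GC and length correction (adjusted p = 0.00294). Sequence shared with other annotated loci covers 34.81% of the 100-base windows of HNRNPA3, 24.92% of those of HNRNPL and 44.68% of those of HNRNPUL2, and exons of COX20 lie opposite 3502 bases of HNRNPU. HNRNPA0 was called lower without siMock replicate 3 (log2 fold change −0.27, adjusted p = 0.00728) and with the replicate number as a block (adjusted p = 0.0387).

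The order of levels between genes was read on the deposited FPKM scale, which divides by gene length. In siMock the members with the highest mean were HNRNPA1 (214 FPKM), HNRNPA2B1 (161), HNRNPF (151), HNRNPK (142), HNRNPAB (97.2), HNRNPC (84.3) and HNRNPH1 (76.3). In siFUBP1 the highest were HNRNPA1 (247 FPKM), HNRNPA2B1 (120), HNRNPK (118), HNRNPF (106) and HNRNPAB (65.4), and HNRNPC was at 31.7 FPKM and HNRNPH1 at 41.5 FPKM. The sum of the hnRNPs was 8686 ± 137 CPM in siMock and 7258 ± 218 CPM in siFUBP1 (log2 ratio −0.26). The SR proteins summed to 2192 ± 68.2 CPM and 1974 ± 72.9 CPM (log2 ratio −0.15), and the branch point and 3′ splice site factors to 946 ± 6.94 CPM and 768 ± 12.3 CPM (log2 ratio −0.30). The 2 PTB genes summed to 419 ± 15.6 CPM and 357 ± 11.1 CPM (log2 ratio −0.23). In these 4 classes the siMock and siFUBP1 sums did not overlap, with siFUBP1 lower. The same held for 31.7% of all single genes tested. No sum was computed with the GC and length correction, which turned the direction of PTBP1 and U2AF2. The TRA2 genes summed to 278 ± 7.50 CPM in siMock and 301 ± 5.30 CPM in siFUBP1, and FUBP3 and KHSRP together to 318 ± 15.7 CPM and 314 ± 5.21 CPM. All members together took 1.31% of the scaled library in siMock and 1.10% in siFUBP1. These sums carry no test.

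Paralogs or partners were also compared within each sample, as the log2 ratio of their levels in 11 pairs. With 3 samples against 3, a two-sided exact permutation test cannot go below p = 0.1, so no pair could pass the threshold. In that test the adjusted p over the 11 pairs was 0.122 for the 9 pairs whose groups did not overlap. These 9 include FUBP3 to FUBP1 and KHSRP to FUBP1, in which the denominator was the targeted gene. The log2 ratio of HNRNPA1 to HNRNPA2B1 was −0.43, −0.50 and −0.43 in siMock and 0.31, 0.11 and 0.12 in siFUBP1. These ratios are of CPM and do not rank the pair, since HNRNPA2B1 is the longer gene, and in FPKM HNRNPA1 was above HNRNPA2B1 in all 6 samples. The ratio of HNRNPLL to HNRNPL was 1.59 times its siMock value, and that of HNRNPH2 to HNRNPH1 1.43 times. The ratio of SRSF2 to SRSF1 was 0.781 times its siMock value, that of SRSF5 to SRSF6 0.832 times, and that of SRSF7 to SRSF3 0.875 times. In FPKM, FUBP3 (20.3 in siMock and 19.7 in siFUBP1) was below FUBP1 (44.6) in every siMock sample and above it (8.23) in every siFUBP1 sample. TRA2A to TRA2B (exact permutation p = 0.7) and U2AF1 to U2AF2 (exact permutation p = 0.8) overlapped between the groups.

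The members share features that the choice by name did not use. Their median GC content was 42.1% over the 44 members other than FUBP1, against 48.9% over 16109 tested genes. Over all genes the log2 fold change fell with GC content (Spearman's rho −0.20 across genes, which share libraries and are not independent), from a median of 0.15 in the fifth of genes with the lowest GC content to −0.23 in the fifth with the highest. Across the 44 members the same rho was −0.02. The members have a median of 12 annotated transcripts, against 8 over 12655 tested protein-coding genes. At least 1 transcript annotated for nonsense-mediated decay was present in 32 of the 45 tested members (71.1%) and in 43.0% of the coding genes, and at least 1 with a retained intron in 68.9% and 58.0%. HNRNPH1 has 50 annotated transcripts, the most of any member, and HNRNPC has 33. The table counts reads per gene, so the use of single exons or isoforms was not analysed here.

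Matches to the guide seeds were sought in the 3′ UTR of 1 transcript for each of 12505 genes, 44 of them members. An 8-base site (TCAGTTTA for RNAi#1, ACCTCTTA for RNAi#2 and AGAAGAAA for RNAi#3, read on the transcript strand only) was present in 4, 0 and 3 members and in 4.61%, 2.41% and 11.9% of all these genes. Of the 4 members with the RNAi#1 site, 2 were called lower (HNRNPH1 and PTBP2), and PTBP1 and HNRNPA0 were not called. Of the 3 with the RNAi#3 site, 1 was called lower (HNRNPA2B1), and HNRNPA0 and SRSF9 were not called. For comparison, 30.1% of all genes tested were called lower and 30.1% higher. The lower share was 38.3% among genes averaging 1000 counts or more. Calls among all genes with a site were not counted. The first 7 bases of the site were present in 11, 4 and 5 members and in 20.9%, 12.7% and 20.1% of all these genes. Members with these 7 bases were called in both directions or not called. Called lower were HNRNPA2B1, HNRNPH1, SRSF6 and PTBP2 for RNAi#1, HNRNPC and HNRNPF for RNAi#2, and HNRNPA2B1 and SRSF6 for RNAi#3. Called higher were HNRNPH3, HNRNPLL and SRSF8 for RNAi#1, HNRNPA1 and HNRNPLL for RNAi#2, and HNRNPLL for RNAi#3. The 3′ UTR of HNRNPC held no site for RNAi#1 or RNAi#3 and held the 7 bases for RNAi#2. The sites of HNRNPC and HNRNPH1, the hnRNPs with the largest falls, are shown with their flanks, with the matched bases in capitals:
HNRNPC, RNAi#2: ttaattttgatACCTCTTtatgacttaaca
HNRNPH1, RNAi#1: ttaagaaaactTCAGTTTAacagtttctgc
A match of letters does not show that a guide bound there, and a part of such sites in these changes was not tested.

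The rest of the splicing machinery was described by 6 lists with 123 genes, of which 117 were tested. Over all lists 33 genes (28.2%) were called higher, 45 (38.5%) were called lower, and 39 did not pass the test, against 30.1% higher and 30.1% lower over all genes. The shares among genes averaging 1000 counts or more were 32.2% higher and 38.3% lower. The U1 and Sm core had 4 higher and 3 lower of 14, and the U2 and branch site genes 5 higher and 4 lower of 20. The tri-snRNP and catalytic genes had 10 higher and 8 lower of 24, and the SR protein kinases and import factors had 5 higher and 5 lower of 10. The SR-related coactivators had 1 higher and 6 lower of 12 (median log2 fold change −0.19), and other splicing regulators 8 higher and 19 lower of 37 (median −0.22). PTBP3, the third PTB paralog, fell from 109 ± 6.06 to 33.7 ± 3.81 CPM (log2 fold change −1.69, SE 0.09, adjusted p = 1.82e-14). ESRP2, an epithelial splicing regulator, fell from 76.5 ± 3.94 to 31.1 ± 1.28 CPM (log2 fold change −1.30), and PSPC1, a paraspeckle protein, from 51.6 ± 0.649 to 21.3 ± 2.91 CPM (log2 fold change −1.28). PLRG1, a subunit of the PRP19 complex, rose from 34.6 ± 2.02 to 68.8 ± 6.28 CPM (log2 fold change 0.99), PRPF3, a U4/U6 snRNP protein, from 56.0 ± 3.86 to 110 ± 6.02 CPM (0.97), and MBNL2, a muscleblind-like regulator, from 110 ± 7.36 to 212 ± 2.34 CPM (0.94). For these 6 genes, the 3 largest rises and the 3 largest falls among called genes averaging 100 counts or more, the adjusted p was at most 5.89e-10.

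**Figure D5:**
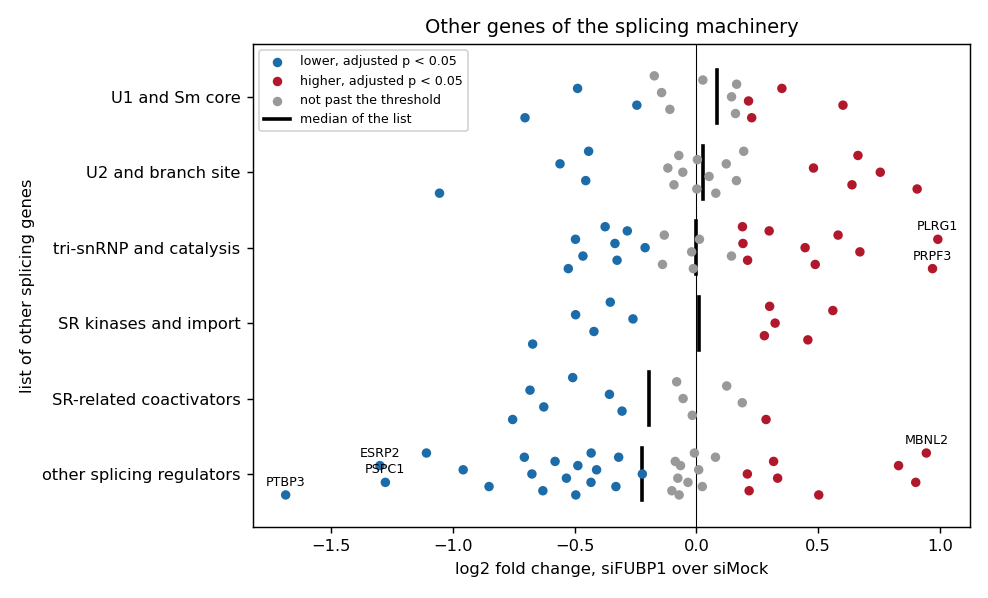
Log2 fold change (x axis, siFUBP1 over siMock) of the 117 tested genes in 6 lists of other splicing genes (y axis). Each point is 1 gene, colored by its call, and the black bar is the median of the list. The list medians lie between −0.22 and 0.09, and the 6 genes named in the text are labelled.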

How the data were processed

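RNA from 3 siFUBP1 and 3 siMock samples was sequenced by the authors from poly(A) libraries made with the NEBNext Ultra kit. Samples were grouped by their titles. The labels do not say whether the samples of a group were separate cultures, so p-values measure only the spread between these samples. The authors deposited 1 table with read counts per gene, without normalization. The submitters' processing notes name HISAT2 2.0.5, StringTie 1.3.3b, featureCounts 1.5.0-p3 and DESeq2 1.16.1 without their roles, and the strand setting is not given in the sources used here. The FPKM values deposited by the authors equal the counts divided by gene length and by a factor of each sample. The deposited signal columns (group means), log2 fold changes and p-values are the authors' own comparison and were not used. All 58735 gene positions match GENCODE release 29 (GRCh38).

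The test of siFUBP1 against siMock used edgeR 4.0.16 under R 4.3.3 with TMM factors, filterByExpr and the robust quasi-likelihood F test. P-values were adjusted by Benjamini-Hochberg over 16116 genes, with calls at an adjusted p below 0.05. The SE is the absolute log2 fold change divided by the square root of F. Total counts were 16309900 to 17484313 per sample, TMM factors 0.959 to 1.05, and the common dispersion 0.00684. No pair of samples was identical, and within groups the log2 CPM correlated at 0.989 to 0.991. On simulated counts with 200 changed genes, edgeR recovered 97.5% with 10 false calls among 16088 genes, and DESeq2 93.5%. In the data 60.2% of 16116 genes were called, and whether these rates hold there was not tested. With a simulated GC trend, the correction reduced false calls from 4895 to 6. That trend was planted in siFUBP1 as an artefact, with the opposite sign to the trend in the data. It therefore cannot show whether the trend in the data is technical. Limits from counts of 0 are 3 counts per library and cover counting error only.

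The members, the 6 lists of other splicing genes and the 11 pairs were chosen with earlier results of these data known. Every member is named. The other splicing genes named are the 3 largest rises and 3 largest falls among called genes averaging 100 counts or more. Not every copy of a member that took reads was named. Alternatives were RLE size factors, no filter, DESeq2 1.42.0, the replicate number as a block, offsets for GC content and transcript length, both together, glmTreat at 1.2-fold, a log2 fold change above 1, deposited FPKM for sums and ratios, and each sample left out. Sequences come from the study's list of siRNAs and from GENCODE 29 transcripts. Seed sites and shared sequence were read from 1 coding transcript per gene (the best APPRIS rank in the annotation, then the longest coding sequence), the latter as its 100-base windows found in transcripts of other genes. GC content is that of the longest transcript. The sequences of the other seed sites are not reported here.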

Additional observations from a re-analysis of the deposited data

How the results depend on the processing

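Of the 27 called members, 19 (17 lower and 2 higher) were called by adjusted p in each of the 12 alternative fits other than glmTreat, and 15 (14 lower and 1 higher) in glmTreat as well. Of the 18 members not called, 9 were called in no alternative fit. FUBP1 was called in every alternative, and without 1 sample its log2 fold change was −2.54 to −2.38. The number of members called higher was 4 with the GC and length correction, with or without the replicate block, 1 by glmTreat (where 21.6% of all genes were higher and 22.1% lower), and 3 to 6 without 1 sample. By glmTreat 14 members were lower. Members called lower were 17 to 20 without 1 sample. With a log2 fold change above 1, members called were 0 higher and 3 lower, and other splicing genes 0 higher and 5 lower. By glmTreat 16 other splicing genes were higher, and without 1 sample 28 to 32 were higher and 41 to 45 lower. For HNRNPA1, 4 of the 6 samples decided the call, and the cause of the lost calls was not tested.

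The numbers did not pair the samples: the correlations of deviations for replicates 1, 2 and 3 were −0.00469, 0.0171 and 0.123, and siFUBP1 replicate 1 and 2 correlated best with another number. With the replicate block 7 members were higher and 22 lower, and of other splicing genes 36 were higher and 46 lower.

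Directions turned in 13 members that had not been called. With the GC and length correction the log2 fold changes were 0.151 for PTBP1, 0.116 for HNRNPUL1, −0.0359 for HNRNPD, 0.156 for KHSRP, 0.00816 for U2AF2, −0.0119 for TRA2B, −0.186 for SRSF7, −0.00211 for SRSF4, −0.142 for SRSF9, −0.0729 for TRA2A and −0.0491 for HNRNPA1P48. With the replicate block added to that correction they were 0.150, 0.118, −0.0348, 0.155, 0.00914, −0.0117, −0.187, −0.00475, −0.137, −0.0734 and −0.0481. Without a filter HNRNPUL1 was at 0.0125 and KHSRP at 0.0143, and in DESeq2 at 0.00480 and 0.00688, while SRSF7 was at −0.000135 with RLE size factors. Without 1 sample, the ranges were −0.0404 to 0.0422 for HNRNPUL1, −0.0483 to 0.0282 for KHSRP, −0.0320 to 0.0311 for SRSF7, −0.0364 to 0.0944 for SRSF4, −0.0103 to 0.111 for HNRNPUL2 and −1.23 to 0.365 for U2AF1. The log2 ratio without 1 sample changed by −0.00988 to 0.105 for TRA2A to TRA2B and by −0.952 to 0.212 for U2AF1 to U2AF2, and the other 9 pairs kept their direction. In deposited FPKM, which weights short genes more, the PTB sum had a log2 ratio of −0.179. Leaving out samples for the sum of U2AF1 and U2AF1L5 was added after seeing the data.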

Other observations

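Annotated pseudogenes with an HNRNP or SRSF symbol took few reads, and pseudogenes of the other members were not sought. Of 126 loci with such a symbol, 55 had a count in any sample and 18 were tested. HNRNPCP2 (chromosome 2, 189923336 to 189924216, plus strand), which is 98.75% identical to HNRNPC over 881 bases, had 173, 207 and 141 counts in siMock and 54, 64 and 69 in siFUBP1 (log2 fold change −1.55, SE 0.17, adjusted p = 1.7e-08). HNRNPC itself had a log2 fold change of −1.42, and 8.42% of its 100-base windows occur in HNRNPCP2. HNRNPA1P33 (chromosome 10, 46415853 to 46416413, plus strand), 95.54% identical to HNRNPA1 over 561 bases, had 92, 91 and 96 counts in siMock and 29, 49 and 30 in siFUBP1 (log2 fold change −1.45, SE 0.22, adjusted p = 3.94e-06), where HNRNPA1 had a log2 fold change of 0.20. HNRNPA1P49 had 27, 12 and 13 counts in siMock and 6, 7 and 10 in siFUBP1 (log2 fold change −1.24, adjusted p = 0.0219). The other 15 tested pseudogenes did not pass the test, among them HNRNPA1P10 (log2 fold change 0.08), HNRNPKP4 (0.14) and HNRNPLP2 (−0.40). Whether these reads came from the pseudogenes or from the parent genes was not tested.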
